A study of Rattus norvegicus with 6 samples.

Results

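Potassium channel genes were taken as all genes whose single symbol in the array's annotation starts with Kcn. There were 81 of them among the 14168 genes with a symbol of their own, and where a gene had several probe sets the brightest on average stood for it. The 6 arrays hold total RNA of the inner medulla of the kidney, from male Sprague-Dawley rats that weighed 200 to 250 g, 2 arrays in each of 3 groups. In the withdrawal group dDAVP (desmopressin, a synthetic agonist of the vasopressin V2 receptor) was infused at 40 ng/h under the skin by osmotic minipump for 5 d, then the pump was taken out under light enflurane anaesthesia and tissue was collected 3 h later. The dDAVP group had the same infusion with no withdrawal, and vehicle rats were infused with saline (1 µl/h) for 5 d. All rats were kept in metabolic cages on a fixed food ration with free water, and no age is stated. It is not stated whether arrays of 1 group come from separate rats, so p-values measure only the spread between these arrays, and their number limits the precision of every value.

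Potassium channels are membrane pores that let potassium ions pass, and they help set the membrane voltage against which other ions move. Inward rectifiers (Kcnj) and two-pore-domain channels (Kcnk) carry resting and secretory currents, voltage-gated channels (Kcna to Kcnd, Kcnh, Kcnq) open on depolarisation, and a further class opens with intracellular calcium or sodium (Kcnma1, Kcnn, Kcnt). Modifier subunits (Kcnf, Kcng, Kcns, Kcnv) form no channel alone, and accessory proteins (Kcnab, Kcne, Kcnip, Kcnmb) alter the gating or traffic of a pore. In the collecting duct and the thick ascending limb apical channels secrete or recycle potassium, and vasopressin is known to stimulate potassium secretion in the cortical collecting duct.

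All 9 of 9 collecting duct markers were measured, which shows only that the array has probe sets for them and does not test the tissue label. In vehicle the 5 thick ascending limb markers, at 9.33 to 11.96, lay above the median gene (7.99). The 5 proximal tubule markers, at 6.65 to 7.56, lay below it. How closely the dissection kept to the inner medulla was not tested. Aqp2, the vasopressin-regulated water channel, had a log2 intensity of 13.23 and 13.14 in withdrawal, 13.40 and 13.30 in dDAVP and 13.16 and 13.23 in vehicle. The arrays' median intensity over all probe sets was 181 to 182 in withdrawal, 156 to 165 in dDAVP and 175 to 182 in vehicle, so the dDAVP arrays were the dimmest. A further pair, dDAVP replicate 2 and vehicle replicate 1, differed from the rest, for example in the cell cycle gene Top2a, at 6.83 and 7.07 in these 2 arrays and 8.59 to 9.28 in the other 4. Arrays of the same group correlated at 0.991 in withdrawal, 0.985 in dDAVP and 0.987 in vehicle over all genes, and genes are not independent replicates.

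Most potassium channel genes were dim in the vehicle inner medulla. In vehicle 12 of the 81 lay above the median gene (log2 intensity 7.99), and the median member was at 7.12. As a guide to the low end, 187 olfactory and vomeronasal receptor genes, a comparison chosen after the levels were seen, had a median of 6.04 and a 95th percentile of 6.89, and 34 of the 81 members lay at or below that percentile. A probe set's brightness also depends on its probes, so the order of levels between genes is an order of signals and not of transcript numbers.

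**Figure D1:**
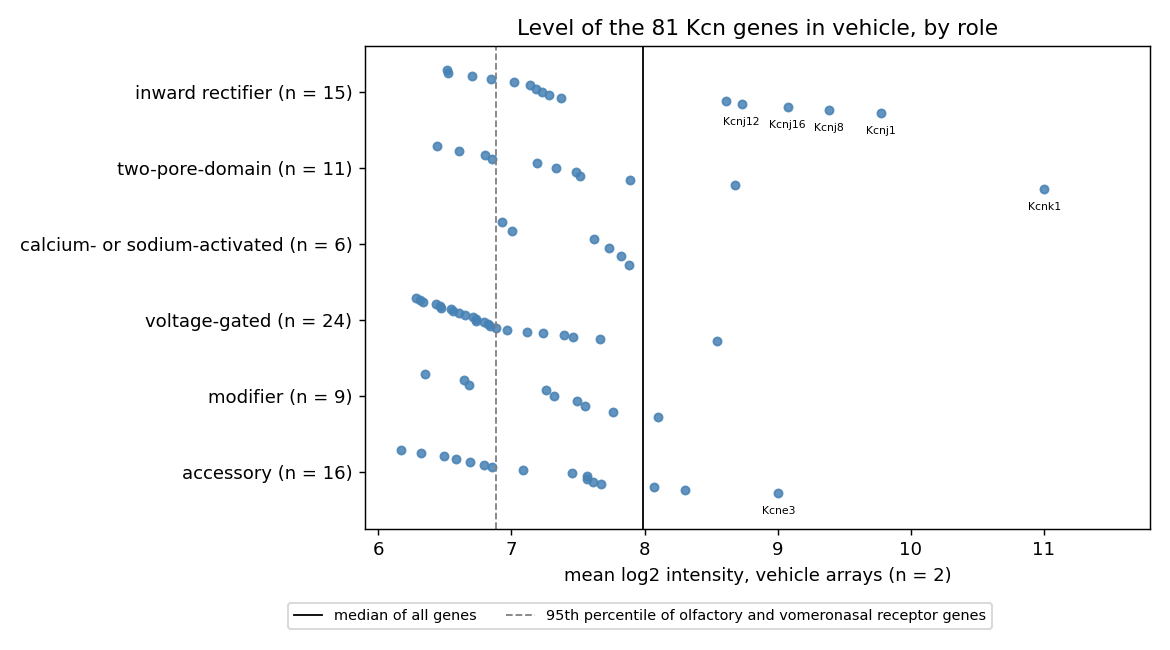
Each point is a potassium channel gene at its mean log2 intensity in the 2 vehicle arrays (x axis), in rows by role. The solid line is the median of all genes (7.99) and the dashed line the 95th percentile of the olfactory and vomeronasal receptor genes (6.89), and most points lie left of the solid line, with Kcnk1 farthest right at 11.00.

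The brightest member was Kcnk1, which encodes a two-pore-domain background channel. It had 11.24 and 11.22 in withdrawal, 11.47 and 11.05 in dDAVP and 10.88 and 11.12 in vehicle, above 93.0% of all genes in vehicle. Its groups of dDAVP and vehicle overlapped, and both withdrawal arrays lay above both vehicle arrays. The difference of dDAVP against vehicle was 0.26 ± 0.16 (SE) with a 95% interval of -0.13 to 0.65 and a limma adjusted p of 0.558. With dDAVP replicate 1 left out it was 0.05, with dDAVP replicate 2 left out 0.47, and without vehicle replicate 1 it was 0.14. No other two-pore-domain gene but Kcnk12, at 8.68 ± 0.08 in vehicle (SD, n = 2), lay above the median gene. Kcnk6 was at 7.89, the acid-sensitive Kcnk3 at 7.49 and the mechanically gated Kcnk2 at 6.81.

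Inward rectifiers gave 5 of the 12 members above the median gene, the most of any role. Kcnj1, the secretory channel of the thick ascending limb and collecting duct, had 10.45 and 10.09 in withdrawal, 10.19 and 9.81 in dDAVP and 9.11 and 10.44 in vehicle. Vehicle replicate 1 was the lowest of the 6 arrays, and the range of 1.34 was the widest of any member and wider than in 98.8% of all genes. Kcnj8, the pore of the vascular ATP-sensitive channel, spanned 9.21 to 9.66 with all groups overlapping, and Kcnj16, which pairs with Kcnj10 in basolateral membranes, spanned 8.70 to 9.31. Kcnj12 and Kcnj13 were at 8.73 ± 0.20 and 8.61 ± 0.21 in vehicle. Kcnj10 (7.37), Kcnj15 (7.14) and Kcnj11 (6.84), the pore of the pancreatic ATP-sensitive channel, were dimmer in vehicle. The sulphonylurea receptor Abcc9, the usual partner of Kcnj8, had 7.57 and 8.23 in withdrawal, 7.77 and 8.18 in dDAVP and 8.44 and 7.64 in vehicle, a spread within each group wider than the differences between them.

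Among the accessory subunits 3 of 16 lay above the median gene, all of the Kcne family of single-span proteins that bind Kcnq1 and other voltage-gated pores. They were Kcne3 (9.01 ± 0.15 in vehicle), Kcne2 (8.30 ± 0.38) and Kcne4 (8.07 ± 0.06), and Kcne1 was at 6.86. Kcnq1 itself, at 8.55 ± 0.15 in vehicle, was the brightest of the 24 voltage-gated pores and the only one above the median gene. Of the 9 modifiers Kcng2 alone (8.10) lay above it. None of the 6 calcium- or sodium-activated pores did, and Kcnn3 (7.88), Kcnn4 (7.74) and the large-conductance pore Kcnma1 (7.62) were close below. Of the Kcnmb subunits that bind Kcnma1, Kcnmb3 was at 7.61, Kcnmb4 at 7.57, the smooth muscle subunit Kcnmb1 at 7.46 and Kcnmb2 at 6.32. Kcna3, the lymphocyte channel, was at 6.79, Kcna10 at 6.65 and Kcna1 at 6.47. The 3 dimmest members were Kcnh5 (6.31), Kcnh7 (6.29) and Kcnab3 (6.17). In this order Kcnk1 lay 1.23 above Kcnj1. Kcnj1 lay 0.39 above Kcnj8, which is less than the SD of 0.94 between its own vehicle arrays. Kcnj16 and Kcne3 (0.07 apart), Kcnj12 and Kcnk12 (0.05), Kcnk12 and Kcnj13 (0.07) and Kcnj13 and Kcnq1 (0.06) were closer than the median residual SD of the members, 0.11.

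**Figure D2:**
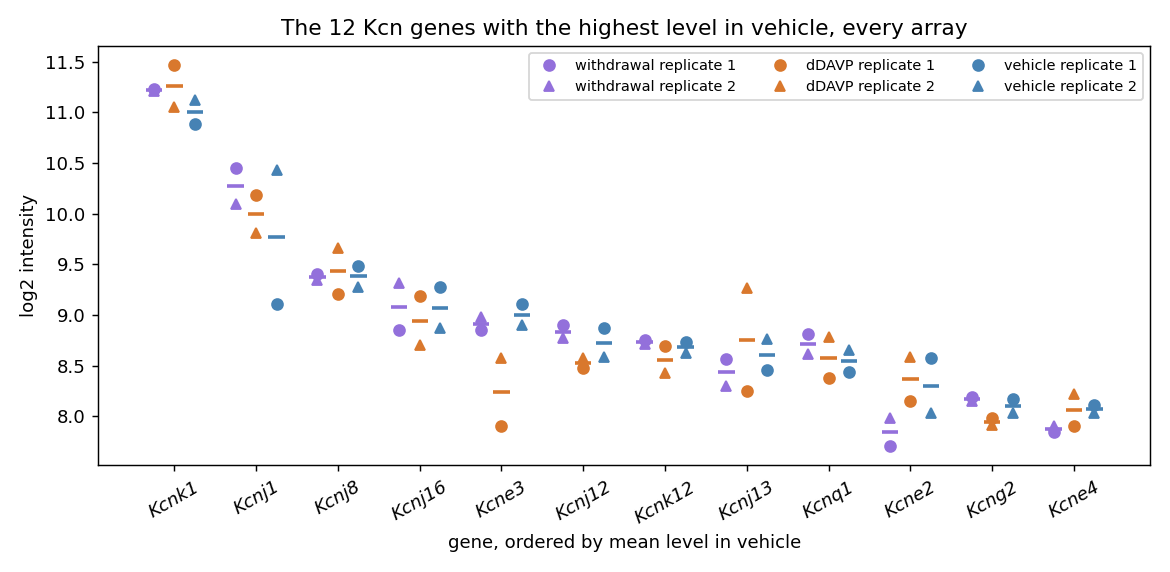
Log2 intensity (y axis) of the 12 potassium channel genes with the highest mean in vehicle (x axis) in every array, with withdrawal left, dDAVP in the middle and vehicle right, and short bars for group means. Kcnk1 lies above all others, Kcnj1 is lowest in vehicle replicate 1 (9.11), and Kcne3 is lowest in the dDAVP arrays (7.91 and 8.58).

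The first comparison, dDAVP against vehicle, asked how 5 d of V2 receptor stimulation altered these transcripts. No potassium channel gene passed an adjusted p of 0.05 in limma (smallest 0.549), and 0% of all genes did. At an unadjusted p under 0.05 none was higher and 8 were lower (9.88% of the members), beside 0.572% of all genes higher and 6.85% lower. The arrays of the groups did not overlap in 44 members, all lower in dDAVP (54.3%), beside 40.6% of all genes, and 4.80% of all genes were higher in this way. Dim genes as a whole were lower in the dDAVP arrays, and 69 of the 81 members lay at or below the median level. Among genes at or below it, 59.4% of the members and 59.5% of all genes were lower without overlap, and 0 members and 0.833% of all genes were higher. The median difference was -0.15 for the members and -0.11 for all genes, and for the members it was -0.08 without vehicle replicate 1. Cyclic loess, a normalization that removes level-dependent differences between arrays, brought the medians to -0.02 and -0.01. Whether fewer cells of a type or less RNA per cell lies behind any difference cannot be told apart in whole tissue.

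**Figure D3:**
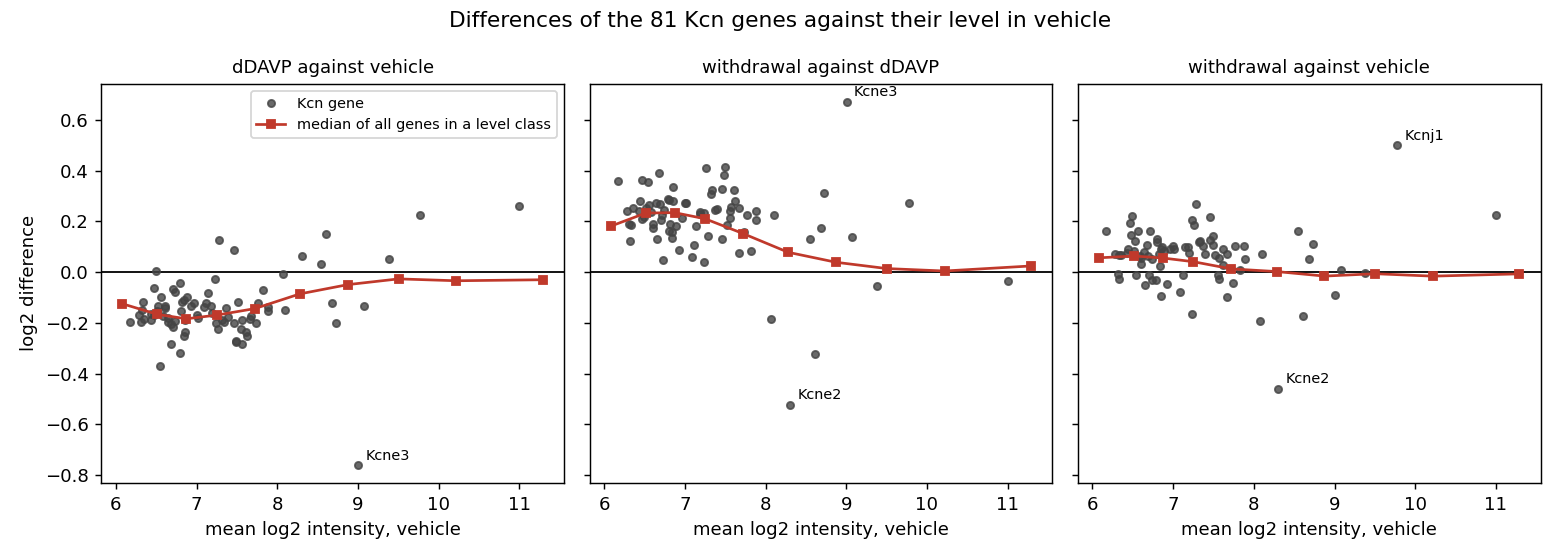
Log2 difference (y axis) of each of the 81 potassium channel genes (points) against its mean log2 intensity in vehicle (x axis), for dDAVP against vehicle, withdrawal against dDAVP and withdrawal against vehicle. The line joins the medians of all genes in 10 classes of level, most points lie near it, and Kcne3 lies farthest from it at -0.76 and 0.67 in the first and middle panels.

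Kcne3, which holds Kcnq1 open in epithelia such as the colon, had the largest difference of any member. It had 7.91 and 8.58 in dDAVP, against 9.11 and 8.90 in vehicle. Both dDAVP arrays were below both vehicle arrays, and they lay 0.67 apart from each other. The difference was -0.76 ± 0.22 (SE), or 1.69-fold lower in dDAVP, with a limma adjusted p of 0.549. Without dDAVP replicate 1 it was -0.42, without dDAVP replicate 2 it was -1.10, and with both of the differing arrays left out -0.99. After cyclic loess it was -0.69 ± 0.22, and Kcne3 was then the only member at an unadjusted p under 0.05, beside 1.52% of all genes lower and 1.77% higher in this way.

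The other members named by the smallest p were Kcna3, Kcnh6, Kcne1 and Kcnk3, none of which passed. Kcna3 had 6.49 and 6.46 in dDAVP, against 6.84 and 6.74 in vehicle, a difference of -0.32 ± 0.09. Kcnh6, a voltage-gated pore of the ether-a-go-go-related family, had 6.03 and 6.32 in dDAVP, against 6.49 and 6.59 in vehicle (-0.37 ± 0.12, and -0.22 without dDAVP replicate 1). Kcna3, Kcnh6 and Kcne1 had vehicle means below the 95th percentile of the receptor genes. Kcne1, the partner of Kcnq1 in heart and inner ear, had 6.63 and 6.61 in dDAVP, against 6.89 and 6.82 in vehicle (-0.24 ± 0.09). Kcnk3 had 7.19 and 7.24 in dDAVP, against 7.56 and 7.42 in vehicle (-0.27 ± 0.10). In each of the 4 the groups were separate, and after cyclic loess the differences became -0.16, -0.22, -0.07 and -0.12 in the order named.

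In the pore of the large-conductance channel and in 3 of its 4 subunits both dDAVP arrays lay below both vehicle arrays as deposited. These genes lay at or below the median level, where 59.5% of all genes were lower in this way. Kcnma1 had 7.28 and 7.46 in dDAVP, against 7.68 and 7.56 in vehicle, a difference of -0.25 ± 0.10 as deposited, -0.16 without dDAVP replicate 1 and -0.11 after loess. Kcnmb3 had 7.35 and 7.40 in dDAVP, against 7.63 and 7.59 in vehicle, a difference of -0.23 ± 0.09 and of -0.09 after loess. Kcnmb4 had 7.26 and 7.31 in dDAVP, against 7.79 and 7.35 in vehicle, and Kcnmb2, among the dimmest members, had 6.12 and 6.23 in dDAVP, against 6.40 and 6.25 in vehicle. After loess Kcnmb4 differed by -0.13 and Kcnmb2 by -0.01, and in both the groups overlapped. In Kcnmb1 the groups overlapped as deposited, with 7.59 and 7.50 in dDAVP, against 7.60 and 7.32 in vehicle. After loess Kcnmb1 differed by 0.23, with both dDAVP arrays (7.74 and 7.58) above both vehicle arrays (7.53 and 7.32).

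By role, the median difference as deposited ran from -0.13 for the inward rectifiers to -0.20 for the modifiers, and the accessory subunits, two-pore-domain, calcium- or sodium-activated and voltage-gated pores lay between them. All 9 modifiers, all 6 calcium- or sodium-activated pores and 23 of 24 voltage-gated pores were below 0, and so were 10 of 11 two-pore-domain genes, 13 of 16 accessory genes and 11 of 15 inward rectifiers. Of all genes 22.1% lay above 0, and of the members 9 of 81. The roles also differed in level, with 5 of 15 inward rectifiers and 1 of 9 modifiers above the median gene in vehicle. With level the median of all genes ran from -0.18 in class 3 of the 10 classes to -0.03 in class 8. The part of level in the order of the roles was not tested.

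The second comparison set the withdrawal arrays, taken 3 h after pump removal, against the dDAVP arrays. The end of the infusion and the procedure under anaesthesia cannot be told apart, since a removal is described for this group only. The comparison shares its dDAVP arrays with the first, so opposite signs in the 2 comparisons are not separate evidence. No member passed in limma (smallest adjusted p 0.260), and 0% of all genes did. At an unadjusted p under 0.05, 27 members were higher (33.3%) and none lower, beside 17.3% of all genes higher and 1.64% lower. In 59 members (72.8%) both withdrawal arrays lay above both dDAVP arrays and in 1 below, beside 49.6% and 8.06% of all genes. Among genes at or below the median level the shares above were 79.7% of the members and 76.7% of all genes, and the shares below were 0% and 1.13%. In 76 members the difference lay above 0, beside 74.9% of all genes. The median difference was 0.23 for the members and 0.14 for all genes, and 0.04 and 0.00 after loess. After loess 4 members were at an unadjusted p under 0.05, Kcne3 and Kcng4 higher and Kcne2 and Kcne4 lower, beside 2.92% of all genes higher and 3.73% lower.

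Kcne3 had 8.85 and 8.98 in withdrawal, against 7.91 and 8.58 in dDAVP, and the groups were separate. Its difference was 0.67 ± 0.22 as deposited (limma adjusted p = 0.260) and 0.60 ± 0.22 after loess. Without dDAVP replicate 1 it was 0.34, and without dDAVP replicate 2 it was 1.01.

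The 5 higher members with the smallest p were Kcng4, Kcnb2, Kcne1, Kcnk3 and Kcnab3. Kcng4, a modifier of the Kcnb pores, had 7.47 and 7.42 in withdrawal, against 7.00 and 7.07 in dDAVP, a difference of 0.41 ± 0.09. Kcnb2, a pore that such modifiers join, had 6.64 and 6.68 in withdrawal, against 6.28 and 6.32 in dDAVP (0.36 ± 0.09). The groups were separate in both genes, and after loess the differences were 0.21 and 0.16. Kcne1 had 6.95 and 6.96 in withdrawal, against 6.63 and 6.61 in dDAVP (0.34 ± 0.09, and 0.12 after loess). Kcnk3 had 7.52 and 7.67 in withdrawal, against 7.19 and 7.24 in dDAVP (0.38 ± 0.10, and 0.20 after loess). Kcnab3, a cytoplasmic subunit of Kcna channels, had 6.29 and 6.38 in withdrawal, against 5.89 and 6.07 in dDAVP (0.36 ± 0.10, and 0.18 after loess). The limma adjusted p was 0.260 for each of the 5. Kcnb2, Kcne1 and Kcnab3 had vehicle means below the 95th percentile of the receptor genes.

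The genes named for the first comparison gave 0.29 ± 0.09 for Kcna3, 0.36 ± 0.12 for Kcnh6, 0.28 ± 0.10 for Kcnma1 and 0.33 ± 0.09 for Kcnmb3 in withdrawal against dDAVP. Without dDAVP replicate 1 Kcnh6 gave 0.21. After loess the 4 values were 0.07, 0.16, 0.11 and 0.15. As deposited both dDAVP arrays were the lowest of the 6 in 41 members (50.6%), beside 33.6% of all genes. After loess this held in 9 members (11.1%), beside 8.83% of all genes, and these were Kcna2, Kcna3, Kcne3, Kcng4, Kcnip2, Kcnk3, Kcnma1, Kcnmb3 and Kcnv1.

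Kcne2 is a relative of Kcne3 found with Kcnq1 in gastric and choroid plexus epithelium. As deposited it was the only member lower in withdrawal than in dDAVP without overlap. After loess 5 members were lower in this way and 23 higher, beside 18.2% and 20.8% of all genes. Among the 5 was Kcne4, with 7.81 and 7.87 in withdrawal, against 8.02 and 8.28 in dDAVP. As deposited Kcne2 had 7.71 and 7.98 in withdrawal, against 8.15 and 8.58 in dDAVP, while vehicle had 8.57 and 8.03. The difference of withdrawal against dDAVP was -0.52 ± 0.23 (limma adjusted p = 0.269), and -0.63 after loess. Its 2 highest arrays were dDAVP replicate 2 and vehicle replicate 1, the pair that differed from the rest, and without both the difference was -0.31. Kcnj13 was also highest in dDAVP replicate 2, at 9.27 against 8.25 to 8.76 in the other 5 arrays. The summed log2 level of 4 of 5 urothelial markers was 9.74 and 9.70 in withdrawal, 9.21 and 9.96 in dDAVP and 9.87 and 9.50 in vehicle, and its 2 highest arrays were the same as those of Kcne2. Of the single markers Upk3a had these 2 arrays as its highest and Upk1a, Upk1b and Upk2 did not, and the sums of the endothelial and of the neuronal and Schwann cell markers also had them as their highest. Krt5 was not measured, Upk1a, Upk1b, Upk2 and Upk3a were at 6.93 to 8.62 in the 6 arrays, and their part in the level of Kcne2 was not tested.

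**Figure D4:**
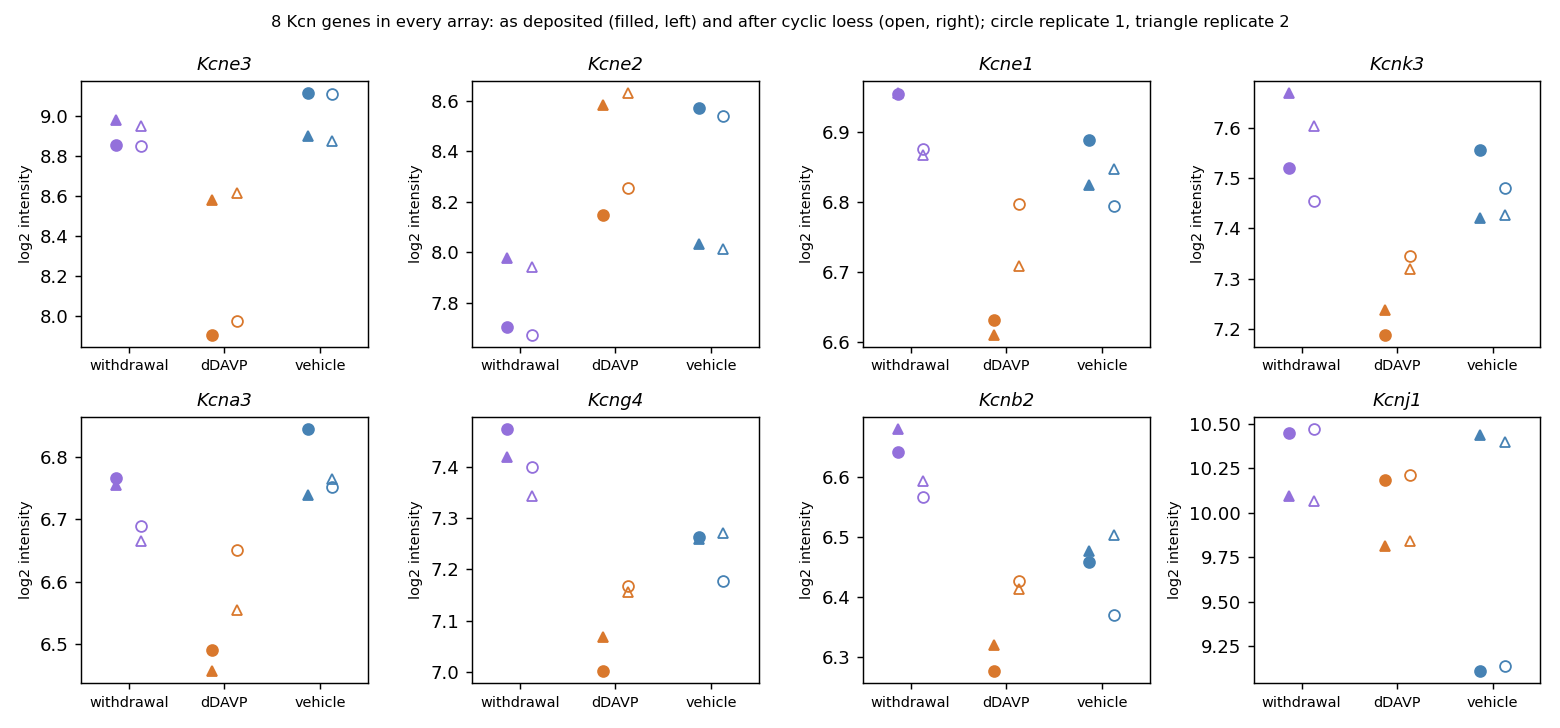
Log2 intensity (y axis) of 8 potassium channel genes in withdrawal, dDAVP and vehicle arrays (x axis), as deposited (filled symbols) and after cyclic loess (open symbols), with circles for replicate 1 and triangles for replicate 2. Loess moved the dim genes Kcne1, Kcnk3, Kcna3, Kcng4 and Kcnb2 up in the dDAVP arrays and moved Kcne3, Kcne2 and Kcnj1 less.

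The third comparison, withdrawal against vehicle, set the end state against tissue of saline-infused rats that had no dDAVP, and it shares arrays with both others. The infusion, its end and the removal under anaesthesia cannot be told apart here. No member passed in limma (smallest adjusted p 0.995), 0% of all genes did, and none was at an unadjusted p under 0.05, beside 0.642% of all genes higher and 1.14% lower. The arrays did not overlap in 19 higher (23.5%) and 3 lower members (3.70%), beside 17.6% and 13.1% of all genes. Among genes at or below the median level 26.1% of the members and 25.6% of all genes were higher in this way, and 1.45% and 6.51% were lower. After loess no member was at an unadjusted p under 0.05, beside 0.649% of all genes higher and 1.50% lower. The median difference was 0.07 for the members and 0.03 for all genes, and for the members it was 0.12 without vehicle replicate 1 and -0.0011 without vehicle replicate 2. Kcnb2 and Kcng4 differed by 0.19 ± 0.09 each, and Kcnh2, the cardiac repolarising pore, and Kcnd1 by 0.16 ± 0.09 each. Kcnmb1 had 7.74 and 7.61 in withdrawal, against 7.60 and 7.32 in vehicle (0.22 ± 0.13), and the difference was 0.36 without vehicle replicate 1 and 0.08 without vehicle replicate 2. The 3 lower members were Kcne2 (-0.46 ± 0.23), Kcne4, which inhibits Kcnq1 (-0.19 ± 0.13), and Kcnj11 (-0.09 ± 0.13). Without vehicle replicate 1 the differences of Kcne2 and Kcnj11 were -0.19 and -0.03, and without vehicle replicate 2 they were -0.73 and -0.16. Kcnb2, Kcnh2, Kcnd1 and Kcnj11 had vehicle means below the 95th percentile of the receptor genes.

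Kcnj2 varied more within the dDAVP group than between groups. This gene, a strong inward rectifier, had 7.51 and 7.59 in withdrawal, 7.89 and 6.93 in dDAVP and 7.11 and 7.45 in vehicle, so the 2 dDAVP arrays held both its highest and its lowest level. Beside the low level of Kcnj1 in vehicle replicate 1 (9.11), markers of intercalated cells were also low in that array. The summed log2 level of 5 of 6 such markers was 12.09 and 11.43 in withdrawal, 11.83 and 11.58 in dDAVP and 10.88 and 11.93 in vehicle. Foxi1 was not measured, and the dimmest of the 5, Slc26a4, was at 6.47 to 6.83. Slc26a4 was not lowest in vehicle replicate 1, where it had 6.67, above both dDAVP arrays. Vehicle replicate 1 was also the lowest array for the summed markers of the collecting duct (14.90), thin limbs (13.06) and immune cells (12.31). For the other listed cell types it was not the lowest. Thick ascending limb markers (5 of 5) summed to 13.08 and 12.83 in withdrawal, 12.86 and 13.35 in dDAVP and 12.94 and 13.07 in vehicle, and Slc12a1 alone, the cotransporter that works with Kcnj1, was lowest in vehicle replicate 1, at 9.46 against 9.63 to 10.69 in the others. The part of these cells in the level of Kcnj1 was not tested.

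Other genes of potassium handling, from a list of pumps, cotransporters, kinases and hormone receptors, were brighter than most members, with a median log2 intensity of 9.48 and 9.53 in the vehicle arrays. At such levels the median of all genes was also near 0, at -0.03 in dDAVP against vehicle and 0.01 in withdrawal against dDAVP in the eighth of the 10 level classes. Of 34 listed genes 24 were measured and none passed in any comparison in limma. Their median difference was -0.01 in the first comparison, -0.01 in the second and 0.00 in the third. At an unadjusted p under 0.05 there were none in the first comparison, 2 higher and 2 lower in the second and 2 lower in the third, beside 17.3% and 1.64% of all genes in the second and 1.14% lower in the third. Atp1b2, a beta subunit of the sodium pump, had 8.49 and 8.51 in withdrawal, against 9.01 and 8.94 in dDAVP, while vehicle had 8.87 and 8.79. Both withdrawal arrays were the lowest of the 6, and the difference was -0.47 ± 0.09 against dDAVP (-0.54 after loess) and -0.33 ± 0.09 against vehicle. Bsnd, the subunit of basolateral chloride channels, had 10.70 and 10.62 in withdrawal, against 11.09 and 10.97 in dDAVP (-0.36 ± 0.10), and differed by -0.31 ± 0.10 against vehicle. The proton-potassium pump Atp12a differed by -0.21 ± 0.09 in dDAVP against vehicle and by 0.30 ± 0.09 in withdrawal against dDAVP, and after loess by -0.05 and 0.08. The cotransporter Slc12a3 differed by 0.24 ± 0.10 in withdrawal against dDAVP. It was dim, at 6.61 in vehicle, and in the second of the 10 level classes the median of all genes was 0.23. Slc12a4 and the mineralocorticoid receptor Nr3c2 differed by -0.26 ± 0.14 and -0.27 ± 0.15 in withdrawal against vehicle. Without withdrawal replicate 2 the value of Nr3c2 was -0.18.

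Channel partners and other cation channels outside the symbol rule numbered 16, of which 15 were measured and none passed in limma. At an unadjusted p under 0.05, 2 were lower in dDAVP against vehicle, 5 were higher in withdrawal against dDAVP and none was found in withdrawal against vehicle. Of all genes 6.85% were lower and 17.3% higher in this way in the first 2 of these. After loess the shares of all genes were 1.52% and 2.92%, but the counts of 2 and 5 are as deposited and are not comparable with them. The 2 lower genes were Tmem38a, an intracellular cation channel (-0.39 ± 0.10, and -0.24 after loess), and Abcc8, the partner of Kcnj11 (-0.35 ± 0.13, -0.22 without dDAVP replicate 1 and -0.18 after loess). The 5 higher genes were Hcn3 (0.37 ± 0.12) and Hcn4 (0.27 ± 0.10), which are pacemaker channels, Lrrc26, a partner of Kcnma1 (0.35 ± 0.12), Tmem38a (0.31 ± 0.10) and Abcc8 (0.32 ± 0.13). After loess these were 0.17, 0.06, 0.13, 0.13 and 0.11 in the order named, and none of the 5 was then at an unadjusted p under 0.05. Of the 2 lower genes Tmem38a still was after loess and Abcc8 was not. Without dDAVP replicate 1 Lrrc26 differed by 0.21 and Abcc8 by 0.20.

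Promoter windows, from 250 bases before to 50 bases after a gene's start, were taken from RefSeq on build GRCr8. They matched 56 of the 81 members, in 62 windows. V2 receptor stimulation raises cyclic AMP, and factors of the CREB family bind the cyclic AMP response element. Its full site, TGACGTCA, which is its own reverse complement, was in 0 of the 62 windows and in 1.83% of all 33469 windows. The core TGACG, searched on both strands and contained in the full site, was in 12 of the 62 windows (19.4%) and in 21.2% of all windows. Shown are Kcne3, which had the largest differences, Kcne1, and the pair of windows of Kcnj1, which varied most between arrays. Kcne1 was named in both of the first comparisons. So was Kcnk3, which is not shown and is not among the members with the core. Capitals mark the core on either strand. The windows are chr1:163935785-163936084 on the plus strand for Kcne3, chr11:45076984-45077283 on the minus strand for Kcne1, and chr8:39037742-39038041 and chr8:39061391-39061690 on the plus strand for Kcnj1.
Kcne3: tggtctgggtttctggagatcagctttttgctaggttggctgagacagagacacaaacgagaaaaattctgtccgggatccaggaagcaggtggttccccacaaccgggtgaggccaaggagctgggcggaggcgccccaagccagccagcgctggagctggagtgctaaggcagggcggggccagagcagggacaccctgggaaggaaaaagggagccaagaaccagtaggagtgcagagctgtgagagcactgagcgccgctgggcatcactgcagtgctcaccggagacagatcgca
Kcne1: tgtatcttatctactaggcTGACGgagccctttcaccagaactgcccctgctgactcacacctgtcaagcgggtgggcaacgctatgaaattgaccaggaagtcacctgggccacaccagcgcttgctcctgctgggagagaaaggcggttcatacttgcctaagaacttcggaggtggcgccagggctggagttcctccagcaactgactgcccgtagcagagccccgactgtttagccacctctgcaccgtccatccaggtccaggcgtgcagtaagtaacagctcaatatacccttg
Kcnj1, upstream window: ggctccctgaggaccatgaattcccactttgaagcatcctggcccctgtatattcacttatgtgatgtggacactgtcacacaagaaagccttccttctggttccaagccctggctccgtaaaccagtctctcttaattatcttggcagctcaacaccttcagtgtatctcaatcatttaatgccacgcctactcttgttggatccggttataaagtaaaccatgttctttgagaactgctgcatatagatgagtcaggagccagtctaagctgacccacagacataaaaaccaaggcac
Kcnj1, downstream window: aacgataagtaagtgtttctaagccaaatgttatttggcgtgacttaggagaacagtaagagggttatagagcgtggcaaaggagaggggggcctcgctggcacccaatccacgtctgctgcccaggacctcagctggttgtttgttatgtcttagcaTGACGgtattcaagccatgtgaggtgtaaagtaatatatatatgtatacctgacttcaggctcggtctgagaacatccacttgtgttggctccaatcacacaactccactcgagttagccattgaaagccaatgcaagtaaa
The core occurred once in the window of Kcne1 and once in the downstream window of Kcnj1, and these letters were not in the windows of Kcne3 and the upstream window of Kcnj1. A match is a description of the letters and not a measured site.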

How the data were processed

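RNA was extracted with Trizol, labelled by a whole-transcript sense assay and hybridised to Affymetrix rat gene arrays, per the labels' protocols. RMA summarised the probes (per the submitters' processing notes), and the authors deposited 1 intensity per probe set and array on a linear scale, of which log2 was taken. For RMA's version and the genome build, nothing is given in the sources used here, and scan dates and detection calls were not used. Of 28524 probe sets, 14947 carried 1 symbol, 318 several and 13259 none in the annotation table. The table of 14168 genes took the probe set with the highest mean per gene. The Entrez numbers of 14916 single-symbol probe sets matched RefSeq (GRCr8), which changed 0 symbols. A probe set shared by Kcnk5 and Kcnk16 was left out. Kcnip1 and Kcnip2 had 2 probe sets each.

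A model with group means was fitted across the 6 arrays with limma 3.58.1 in R 4.3.3 (lmFit, eBayes, 3 residual and 3.21 prior degrees of freedom). Tests were two-sided, with Benjamini-Hochberg adjustment over all genes of a comparison and a threshold of 0.05. No filter on dim genes was applied. The fit was tested on simulated data. Members named with values were the 12 brightest and 3 dimmest in vehicle, a set known from the kidney (24 of 25 measured) and, per comparison, up to 5 higher and 5 lower members with the smallest p among those whose arrays did not overlap. The naming of Kcnj2 and of the members listed by array order followed a look at their values. The members, lists and tests were chosen with earlier results of these data known. Alternatives were another normalization, dropping the dimmest 25% of genes, averaging probe sets, fewer arrays, another prior and the replicate number as a block.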

Additional observations from a re-analysis of the deposited data

How the results depend on the processing

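In each alternative except 1 no potassium channel gene passed an adjusted p of 0.05 in limma. The exception, chosen after the data were seen because the deviations of same-numbered dDAVP and vehicle arrays correlated at -0.623, was a crossed replicate block (dDAVP replicate 2 with vehicle replicate 1), which called 1 member and 43 genes in all in dDAVP against vehicle and gave 15 members at an unadjusted p under 0.05. The labels do not say that replicate numbers mark a shared batch, and the other correlations were -0.002 and -0.111. With the labelled replicate block, 3 members were at an unadjusted p under 0.05 in dDAVP against vehicle and 14 in withdrawal against dDAVP. In dDAVP against vehicle this count of 8 became 1 after cyclic loess, with array medians subtracted or without the dimmest genes (47 members left), 4 with only the arrays compared, 13 with a trended robust prior and 5 after loess without both arrays that stand apart. It ran from 3 to 14 without single arrays. The 44 members without overlap became 20 after loess, 22 with medians subtracted, 21 without the dimmest genes, 81 without both arrays that stand apart (1 array a group, so that none can overlap, also after loess) and 44 to 69 without single arrays. The median of -0.15 became -0.0173 after loess, -0.0034 with medians subtracted and 0.0021 after loess without both arrays, and ran from -0.23 to -0.0767 without single arrays. In withdrawal against dDAVP 27 members became 4 after loess, 3 with medians subtracted, 10 without the dimmest genes, 3 after loess without both arrays, and 7 to 38 without single arrays. The 60 without overlap became 28, 33 and 30 in the first 3 of these, and the median of 0.23 became 0.0435 after loess, 0.0542 with medians subtracted and 0.0265 after loess without both arrays. In withdrawal against vehicle 1 member was at an unadjusted p under 0.05 with the trended prior, 1 without both arrays and 0 to 2 without single arrays, and 22 without overlap became 12 without the dimmest genes, 67 without both arrays, 56 also after loess, and 22 to 67 without single arrays. In the same comparison the median of 0.07 ran from -0.0011 to 0.12 without single arrays. The medians of dDAVP against vehicle and of withdrawal against vehicle changed sign under the settings just given, whereas no single-gene difference printed above as deposited did. Differences of named genes that are not printed above could change sign. Examples are Kcne4 in dDAVP against vehicle (-0.0077 as deposited, 0.10 after loess) and Kcnmb1 in withdrawal against dDAVP (0.13 and -0.04). Signal over background could not be assessed, and beyond the loess values the causes were not tested.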
